A study of Mus musculus with 15 samples.

Results

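Glra1 and 7 further genes of inhibitory neurotransmission (Glra2, Glrb, Gphn, Slc6a5, Slc32a1, Gad1 and Gad2) were followed through every transcript library of a study that mapped RNA on sections of whole mouse embryos. The 8 genes are named members of the 30534 features in the transcript tables. They were chosen because Glra1 was high in the embryonic day 11 (E11) libraries made with 25 µm channels and had no count in the E11 libraries made with 10 µm channels, so the E11 levels of Glra1 and the contrast between the E11 groups are given as a description only. In the method, microfluidic channels laid over a frozen section in 2 crossed directions leave a pair of barcodes on each small square of tissue, called a pixel here, and the transcripts of each pixel are counted. A pixel is a small region that can hold several cells or part of one.

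The 11 transcript libraries fall into 6 groups by embryonic day and channel width: E10 at 50 µm (3 libraries), E10 at 25 µm (1), E10 at 10 µm (2), E11 at 25 µm (2), E11 at 10 µm (2) and E12 at 50 µm (1). All are labelled as mouse embryo, with no treatment, strain, sex or body region given, and nothing in the labels says whether libraries of a group came from separate embryos, so p-values measure only the spread between these libraries, which may be technical. The titles of the E11 10 µm libraries carry the letters FL, which the labels do not explain. The tissue pixels number 829 to 2271 per library and hold 1563489 to 11998765 counts, with a median of 844 to 11332 counts per pixel. Levels are given in CPM, the counts of a gene per 1000000 counts over all tissue pixels of a library.

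Inhibitory neurons release glycine or GABA. Glycine opens a chloride channel built from alpha subunits, such as those encoded by Glra1 and Glra2, and the beta subunit encoded by Glrb, which gephyrin (Gphn), a scaffold protein, holds at the synapse. Slc6a5 encodes GlyT2, the transporter that loads glycinergic endings with glycine, Gad1 and Gad2 encode the enzymes that make GABA from glutamate, and Slc32a1 encodes the vesicular transporter that packs both transmitters into synaptic vesicles. In the adult, Glra1 is known chiefly as a receptor gene of the spinal cord and brainstem.

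The promoter windows of Gad1, Gad2 and Slc32a1, the 3 genes of GABA synthesis and packing, are shown because these genes were lower together in the same library of each 10 µm pair. RefSeq windows were found for 7 of the 8 genes, the missing one being Glra1. The 250 bases before the RefSeq start are printed 5′ to 3′ for these 3 genes, all on the plus strand of GRCm38.p6, Gad1 at chr2:70561879-70562128, Gad2 at chr2:22622077-22622326 and Slc32a1 at chr2:158610508-158610757. No letters are capitalised, because neither motif searched was found in them.
Gad1: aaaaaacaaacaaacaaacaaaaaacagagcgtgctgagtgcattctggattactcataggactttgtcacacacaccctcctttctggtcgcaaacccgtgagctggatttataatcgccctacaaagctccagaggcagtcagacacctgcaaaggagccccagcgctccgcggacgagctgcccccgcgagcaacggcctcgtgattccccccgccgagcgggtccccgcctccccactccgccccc
Gad2: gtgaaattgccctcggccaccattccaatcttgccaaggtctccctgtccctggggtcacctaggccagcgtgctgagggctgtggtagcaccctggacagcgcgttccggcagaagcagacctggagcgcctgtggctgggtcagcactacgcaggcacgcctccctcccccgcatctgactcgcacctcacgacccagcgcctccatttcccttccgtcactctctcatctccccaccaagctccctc
Slc32a1: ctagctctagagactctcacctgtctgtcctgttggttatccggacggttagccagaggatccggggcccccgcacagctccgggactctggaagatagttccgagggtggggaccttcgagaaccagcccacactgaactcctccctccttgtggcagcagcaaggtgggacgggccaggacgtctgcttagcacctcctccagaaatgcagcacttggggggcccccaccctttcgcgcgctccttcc
The motifs were CAGCTG, an E-box bound by proneural factors, and TAATTA, a core of homeodomain sites. Both read the same on either strand and they share no overlap with each other. CAGCTG was found in 12.8% and TAATTA in 4.90% of 27025 mouse promoter windows of the same length, and neither was found in the windows of the 7 matched genes. The G and C bases made up 58.0% of the Gad1 window, 64.0% of the Gad2 window and 62.4% of the Slc32a1 window.

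Glra1 (chromosome 11, 55514238 to 55608198, minus strand, GRCm38) was at its highest in 2 groups, E11 at 25 µm and E10 at 50 µm. In the E11 25 µm libraries Glra1 had 33.8 CPM (171 counts) and 50.3 CPM (386 counts). In the E10 50 µm libraries it had 29.2, 21.1 and 36.5 CPM, from 331, 177 and 388 counts. These groups overlapped, since the third E10 50 µm library lay above the first E11 25 µm library, so the high Glra1 level was not limited to E11. The E10 25 µm library came next at 13.4 CPM, with a 95% exact Poisson interval of 8.31 to 20.5 that covers counting error only and rests on 21 counts.

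Glra1 was lower in the other libraries. The E12 library had 2.00 CPM (13 counts, interval 1.06 to 3.42), and the E10 10 µm libraries had 1.75 CPM (21 counts) and 0.189 CPM (1 count). Neither E11 10 µm library had a single Glra1 count. Over that group 0 of 3566 tissue pixels had one, which allows a share of up to 0.0841% of pixels, and 0 of 5312704 counts allows up to 0.565 CPM, so Glra1 was at least 77.4-fold lower there than over the E11 25 µm group when 3 counts over the group are taken as the floor. These E11 values chose the gene and carry no test.

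Tests were made with edgeR across all 18233 genes that passed the filter on low counts, 7 of the 8 genes among them, with Glra2 filtered out. Within E10, Glra1 fell from 28.9 ± 7.70 CPM (SD, n = 3) at 50 µm to 0.97 ± 1.10 CPM (SD, n = 2) at 10 µm. The log2 fold change was -4.62 (SE 0.57, adjusted p = 0.034), and the pooled counts gave a 23.2-fold lower level, with a counting interval of 15.2 to 37.2. Glra1 was 1 of 20 genes called of all those tested in this contrast, or 0.11% (0.104% for genes called lower), and no other member was called by edgeR or DESeq2, Slc6a5 being the only one with an unadjusted p under 0.05. The call was lost without the second E10 10 µm library (adjusted p = 0.165), the first (0.148) or the third (0.116) E10 50 µm library, or the first (0.0875) or second (0.095) E11 25 µm library, with log2 fold changes of -4.03 to -4.63.

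Several tissue markers moved with this difference. The summed level of 9 neuron markers was 2179 to 3401 CPM at 50 µm and 848 and 853 CPM at 10 µm, with all 9 detected in every library. The 8 neural progenitor markers, also all detected, summed to 3316 to 4433 CPM at 50 µm and to 2702 and 3856 CPM at 10 µm. The 20 genes of Hox groups 2 to 8, which mark the hindbrain and trunk, summed to 175 to 364 CPM at 50 µm with 20 of 20 detected, and to 5.08 and 0.377 CPM at 10 µm, with 14 and 2 of 20 detected. The 6 genes of the forebrain and midbrain summed to 272 to 406 CPM at 50 µm and to 290 and 576 CPM at 10 µm. Channel width and the part of the embryo under the channels cannot be told apart in this design, nor can fewer cells of a type and less RNA per cell.

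At 50 µm, Glra1 also fell between E10 and E12, from 28.9 ± 7.70 CPM (SD, n = 3) to 2.00 CPM in the 1 E12 library. The log2 fold change was -3.87 (SE 0.74, adjusted p = 0.0235), and pooled counts were 14.7-fold lower, with a counting interval of 8.58 to 27.8. With a single E12 library the test assumes that it varies like the other groups. In this contrast 2.14% of all genes tested were called, 0.214% as lower, and Glra1 was the only one of the 7 members tested. The call was lost without the first (adjusted p = 0.0811) or the third (0.0879) E10 50 µm library, or the first (0.069) or second (0.0773) E11 25 µm library. In the E12 section, neural progenitor markers summed to 1392 CPM, neuron markers to 1113 CPM, Hox genes to 282 CPM and red cell markers to 51508 CPM, against 13500 to 26158 CPM of red cell markers at E10. Liver markers summed to 3814 CPM against 66.3 to 147 CPM at E10 50 µm, mesenchyme and cartilage markers to 3654 against 1044 to 1416 CPM, and the forebrain and midbrain genes to 42.3 against 272 to 406 CPM. The part of these shifts in the Glra1 result was not tested.

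Glrb and Gphn, the beta subunit and the scaffold, spanned a smaller range between libraries than Glra1. Glra2, an alpha subunit gene of the embryonic nervous system (chromosome X, 165129017 to 165327393), had 37 counts in all 11 libraries and at most 1.08 CPM, in the E12 library. Glrb (chromosome 3, 80843599 to 80913660) was detected in every library at 2.55 to 8.31 CPM. Its values were 6.26, 5.24 and 5.08 CPM at E10 50 µm, 8.31 at E10 25 µm, 8.0 and 5.66 at E10 10 µm, 2.76 and 5.99 at E11 25 µm, 2.72 and 2.55 at E11 10 µm, and 6.92 at E12. Gphn (chromosome 12, 78226379 to 78684772), which also serves molybdenum cofactor synthesis outside the nervous system, stayed between 17.9 and 34.0 CPM, a 1.90-fold range over all libraries. It had 31.7, 34.0 and 33.9 CPM at E10 50 µm, and 17.9 and 22.2 CPM at E11 10 µm where Glra1 had no count.

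Neither Glrb nor Gphn was called between libraries in any tested contrast by DESeq2, or by edgeR with its filter on low counts. The unadjusted p passed 0.05 once, for Glrb from E10 to E11 at 10 µm. Glrb differed by 0.34 (SE 0.43) on the log2 scale between E10 10 µm and 50 µm and by 0.28 (SE 0.55) between E12 and E10. At 10 µm, the log2 fold change from E10 to E11 was -1.39 (SE 0.55, adjusted p = 0.184) for Glrb and -0.59 (SE 0.30, adjusted p = 0.294) for Gphn.

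Slc6a5, the glycine transporter gene (chromosome 7, 49910146 to 49963856), was lowly detected, with 105 counts in all. It had 4.05, 1.55 and 2.82 CPM at E10 50 µm, and at most 0.592 CPM in the other 8 libraries, 3 of which had no count. The measured levels of the E10 50 µm libraries lay above all others. The shallow E10 25 µm library, with no count, allows up to 2.36 CPM, which is above the 1.55 CPM of the second E10 50 µm library. Its log2 fold change was -2.80 (SE 0.80, adjusted p = 0.162) from E10 50 µm to E10 10 µm and -2.59 (SE 1.07, adjusted p = 0.29) from E10 to E12, and neither passed the threshold of 0.05. Unlike Glra1, Slc6a5 stood at 0.592 and 0.391 CPM in the E11 25 µm libraries, from 3 counts in each.

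**Figure D1:**
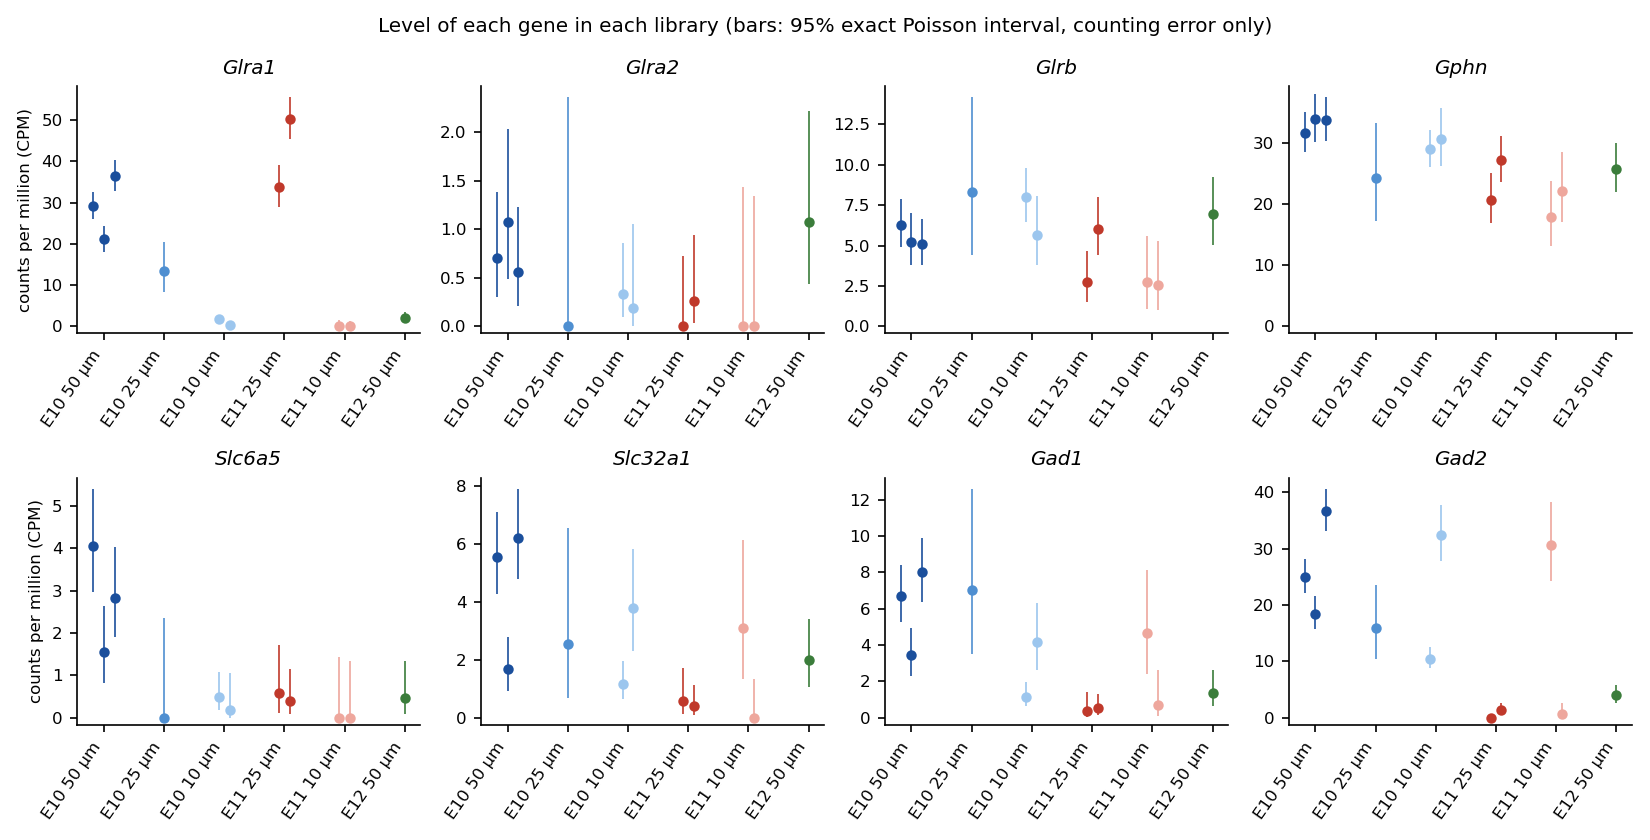
Level of each of the 8 genes in CPM (vertical axis, a separate linear scale per gene) in the 11 libraries, grouped by embryonic day and channel width on the horizontal axis. Each point is a library and each bar its 95% exact Poisson interval. Glra1 sits between 21.1 and 50.3 CPM in the E10 50 µm and E11 25 µm libraries and at 0 in both E11 10 µm libraries, where one library has Gad2 at 30.7 CPM.

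The GABA genes formed another pattern, in which libraries of 1 group stood far apart. Gad2 (chromosome 2, 22622205 to 22693874) had 25.0, 18.5 and 36.8 CPM at E10 50 µm, 15.99 at E10 25 µm, and 10.5 and 32.5 at E10 10 µm. At E11 it had no count and 1.43 CPM in the 25 µm libraries, and 30.7 and 0.729 CPM in the 10 µm libraries, followed by 4.0 CPM at E12. Thus the first E11 10 µm library, which lacked Glra1, had a Gad2 level within the range of the E10 libraries. The E11 25 µm libraries, with 33.8 and 50.3 CPM of Glra1, had little or no Gad2. The third E10 50 µm library, with 36.5 CPM of Glra1, had the highest Gad2 level.

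Gad1 (chromosome 2, 70553072 to 70602014) ran with Gad2. It had 6.70, 3.46 and 7.99 CPM at E10 50 µm, 7.04 at E10 25 µm, 1.17 and 4.15 at E10 10 µm, 0.395 and 0.521 at E11 25 µm, 4.67 and 0.729 at E11 10 µm, and 1.38 at E12. Slc32a1 (chromosome 2, 158610767 to 158615748) had 5.55, 1.67 and 6.21 CPM at E10 50 µm, 2.56 at E10 25 µm, 1.17 and 3.77 at E10 10 µm, 0.592 and 0.391 at E11 25 µm, 3.11 and 0 at E11 10 µm, and 2.00 at E12. In all 3 genes the second E10 10 µm library was above the first, and the first E11 10 µm library was above the second. In the second E11 10 µm library Gad1 and Gad2 had 2 counts each and Slc32a1 none.

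The 2 E11 10 µm sections held different tissue. The first had 277 CPM of the forebrain and midbrain genes, 7.78 CPM of the Hox genes and 75.5 CPM of heart muscle markers. The second had 45.9 CPM of the forebrain and midbrain genes, 210 CPM of the Hox genes, 5670 CPM of heart muscle markers and 3989 CPM of liver markers. The E11 25 µm sections had 409 and 507 CPM of the Hox genes and 11.4 and 24.7 CPM of the forebrain and midbrain genes. The part of these lists in the Gad2 level was not tested.

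None of the GABA genes passed the test between groups of libraries with DESeq2, or with edgeR and its filter on low counts. Without that filter edgeR called members from E10 to E11 at 25 µm, and which ones is not given here. In the contrasts between libraries that are tested here, Gad1 had an unadjusted p under 0.05 from E10 to E11 at 25 µm and for the difference between the stage changes at 25 and 10 µm, and Gad2 and Slc32a1 had none. From E10 to E11 at 25 µm, Gad1 had a log2 fold change of -3.66 (SE 1.11, adjusted p = 0.182) and Gad2 one of -4.07 (SE 1.86, adjusted p = 0.393), with 0.455% of all genes called. The E10 group in that contrast is a single library of 1563489 counts. At 10 µm from E10 to E11, where 3.33% of genes were called, Gad2 differed by -0.50 (SE 1.25), Gad1 by 0.04 (SE 0.84) and Slc32a1 by -0.66 (SE 1.09). The difference between those stage changes was called for 0.137% of genes and for no member tested. From E10 to E12, the log2 fold changes were -2.77 (SE 1.70) for Gad2, -2.14 (SE 1.01) for Gad1 and -1.18 (SE 1.13) for Slc32a1, none of them called. Glra1 was called in the contrast of the E11 groups, where 2.07% of genes were, but that contrast chose it.

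Where the Glra1 counts lay within the sections was asked of pixels ranked by marker genes. The neural-progenitor-high pixels are the 25% of tissue pixels of a library with the highest share of 8 progenitor markers (Sox2, Pax6, Nes, Fabp7, Hes5, Sox1, Vim and Msi1), and the neuron-high pixels are the 25% with the highest share of 9 neuron markers (Tubb3, Stmn2, Elavl3, Elavl4, Dcx, Nefl, Nefm, Ina and Gap43). Glra1 was higher in the progenitor-high pixels in 8 of the 9 libraries that had any Glra1 count, the exception being the E10 10 µm library with 1 count. At E11 25 µm it had 75.4 CPM in progenitor-high pixels against 13.97 CPM in the rest in the first library, and 117 against 16.3 CPM in the second. At E10 50 µm the pairs were 58.4 and 16.3 CPM, 41.8 and 13.5 CPM, and 92.6 and 19.7 CPM. At E12, where the whole section held only 13 Glra1 counts, 8 of them lay in progenitor-high pixels, at 5.30 against 1.00 CPM.

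With library as a block, the log2 fold change of Glra1 between progenitor-high pixels and the rest was 2.21 (SE 0.17, adjusted p = 1.9e-06). In this fit 3.47% of all genes tested were called higher and 7.72% in either direction, and Glra1 was the only one of the 4 members that passed its filter to be called. It stayed called when each library in turn was left out, with log2 fold changes of 2.06 to 2.31. Gad2 differed by 0.06 (SE 0.33), Glrb by 0.20 (SE 0.23) and Gphn by 0.26 (SE 0.10, adjusted p = 0.132). Gad2 was higher in the progenitor-high pixels in 6 of the 10 libraries with a count, with 16.3 against 42.9 CPM in the third E10 50 µm library and 40.7 against 25.9 CPM in the first E11 10 µm library.

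**Figure D2:**
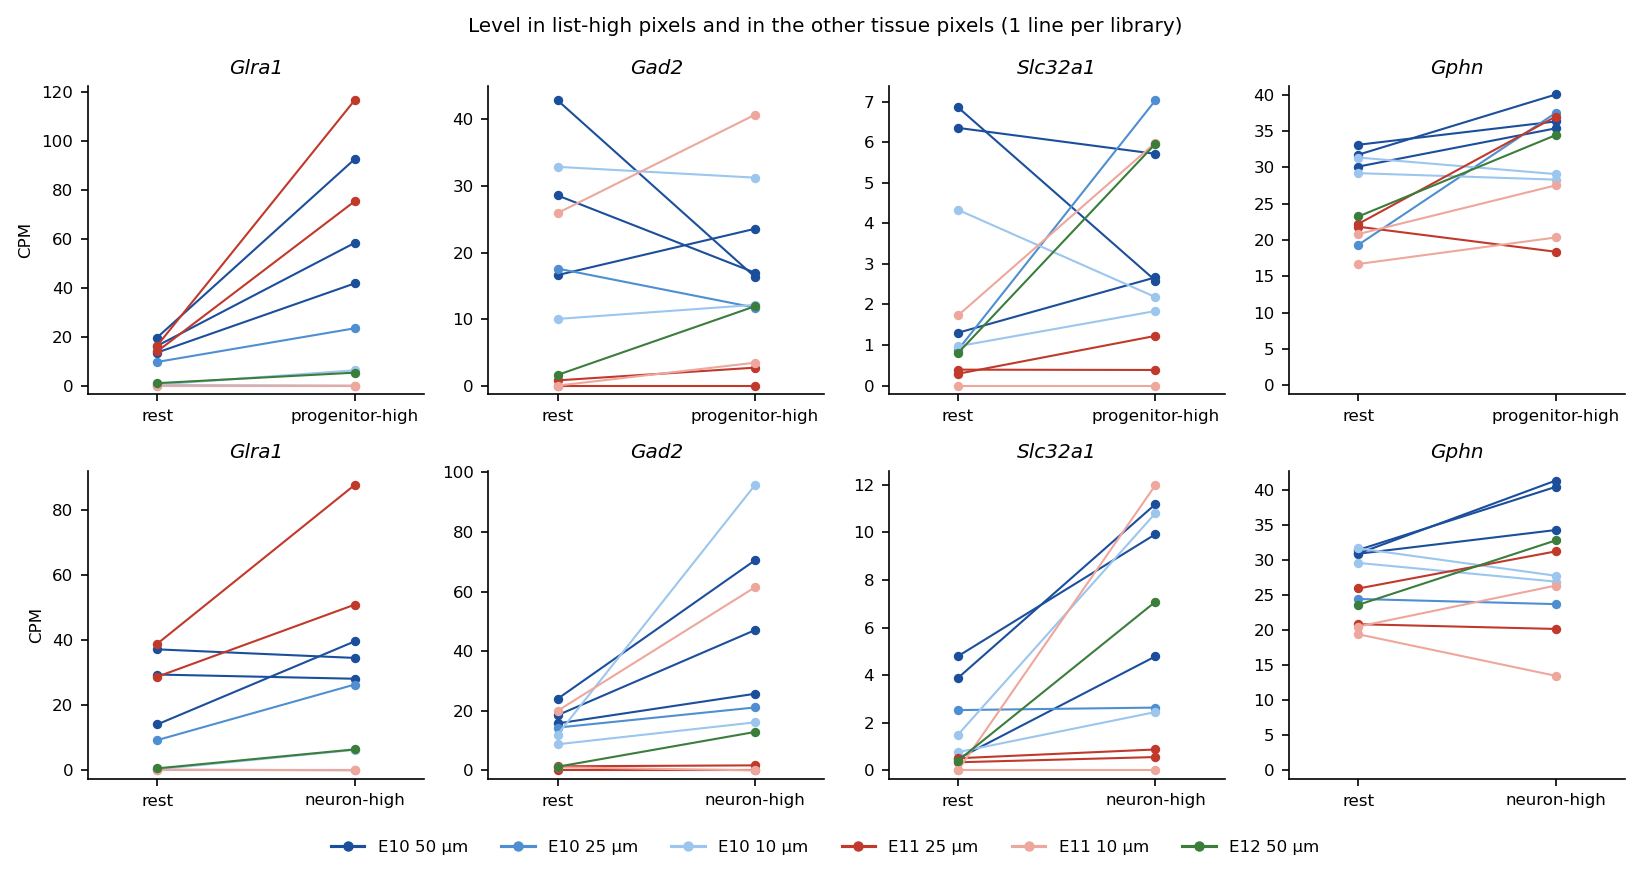
Level in CPM of Glra1, Gad2, Slc32a1 and Gphn in list-high pixels and in the other tissue pixels, 1 line per library coloured by group. Upper panels use the neural progenitor markers and lower panels the neuron markers. Glra1 lines climb towards progenitor-high pixels (117 against 16.3 CPM in the second E11 25 µm library), while Gad2 climbs towards neuron-high pixels in 9 of 10 libraries and Slc32a1 in 10 of 10.

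Gad2 was higher where neuron markers were high. Gad2 had 47.1, 25.7 and 70.5 CPM in the neuron-high pixels of the E10 50 µm libraries against 18.5, 15.8 and 24.0 CPM in the rest. It had 95.8 against 12.0 CPM in the second E10 10 µm library, 61.5 against 19.96 CPM in the first E11 10 µm library and 12.9 against 1.21 CPM at E12. Its log2 fold change was 1.52 (SE 0.26, adjusted p = 0.0011), it was higher in 9 of the 10 libraries with a count, and 11.3% of all genes tested were called higher in that fit, and 22.6% in either direction. Glra1 had a log2 fold change of 0.83 (SE 0.32, adjusted p = 0.097) there and was higher in neuron-high pixels in 6 of 9 libraries. That value passed the threshold without the third E10 50 µm library (1.09, adjusted p = 0.045), in DESeq2 (1.25, adjusted p = 0.0039) and with no filter on low counts (0.78, adjusted p = 1.2e-07).

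Slc32a1, Gad1, Slc6a5 and Glra2 were filtered out of both pixel fits for low counts, so their calls rest on alternatives. Slc32a1 was higher in neuron-high pixels in 10 of the 10 libraries with a count, with 112 counts there and 96 in the rest, and had 11.2, 4.79 and 9.93 CPM against 3.88, 0.492 and 4.80 CPM at E10 50 µm. Slc6a5 was higher there in 7 of 8 libraries (62 counts against 43) and Glra2 in 6 of 7 (25 against 12). Gad1 was higher in 8 of 11 libraries, with 124 counts against 142. Without the filter edgeR called all 4 genes higher, Slc32a1 by 1.92 (adjusted p = 5.4e-11), Slc6a5 by 1.93 (3.4e-05), Gad1 by 1.18 (3.8e-05) and Glra2 by 2.38 (0.0029) on the log2 scale, in a fit that called 4.84% of all genes higher. DESeq2 called the first 3, by 2.16, 1.90 and 1.09 (adjusted p = 1.7e-05, 0.0033 and 0.037), gave no adjusted p for Glra2, and called 8.4% of the genes with an adjusted p higher. Markers of peripheral ganglia were also higher in these pixels, 6 of 6 tested with a median of 1.63, and red cell markers were lower, 7 of 7, and their part in these results was not tested. Glrb (-0.18, SE 0.20) and Gphn (0.15, SE 0.09) were not called in the neuron-high pixels.

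No fit tested the difference between Glra1 and Gad2 in these pixels. The values stand side by side as 2.21 and 0.06 on the log2 scale for progenitor-high pixels, and 0.83 and 1.52 for neuron-high pixels. Pixels are not replicates, and each library gave 1 sum per pixel class.

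The maps show Glra1 in a band and Gad2 in patches. At E11 25 µm, 133 and 223 tissue pixels had at least 1 Glra1 count, or 7.81% and 14.8% of them, and no pixel of any library had more than 8. Of these, 94 of 133 (70.7%, exact binomial interval 62.2 to 78.2%) and 160 of 223 (71.7%, 65.4 to 77.6%) were progenitor-high pixels, which make up 25% of the tissue pixels and held 32.2% and 33.8% of all counts. At E10 50 µm the shares were 53.2%, 51.3% and 46.5% of 173, 113 and 198 pixels. The share in neuron-high pixels was 31.6% and 35.9% at E11 25 µm, and 26.0%, 46.9% and 28.3% at E10 50 µm. Glra1-positive pixels were deeper than the others, with a median of 4347 against 2396 counts and 7542 against 3833 counts at E11 25 µm.

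Neighbouring pixels resembled each other in Glra1. Moran's I, a measure of how alike touching pixels are, was 0.47, 0.215 and 0.42 at E10 50 µm and 0.266 and 0.404 at E11 25 µm, above 97.1% to 99.8% of the genes measured in the same library. Gad2 gave 0.225, 0.155 and 0.256 at E10 50 µm, above 97.6%, 94.7% and 98.0% of the genes measured. Gphn lay between -0.021 and 0.057 in the 7 libraries where it could be measured, above 7.62% to 76.0% of the genes measured. The medians of all genes were 0.017 to 0.027.

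**Figure D3:**
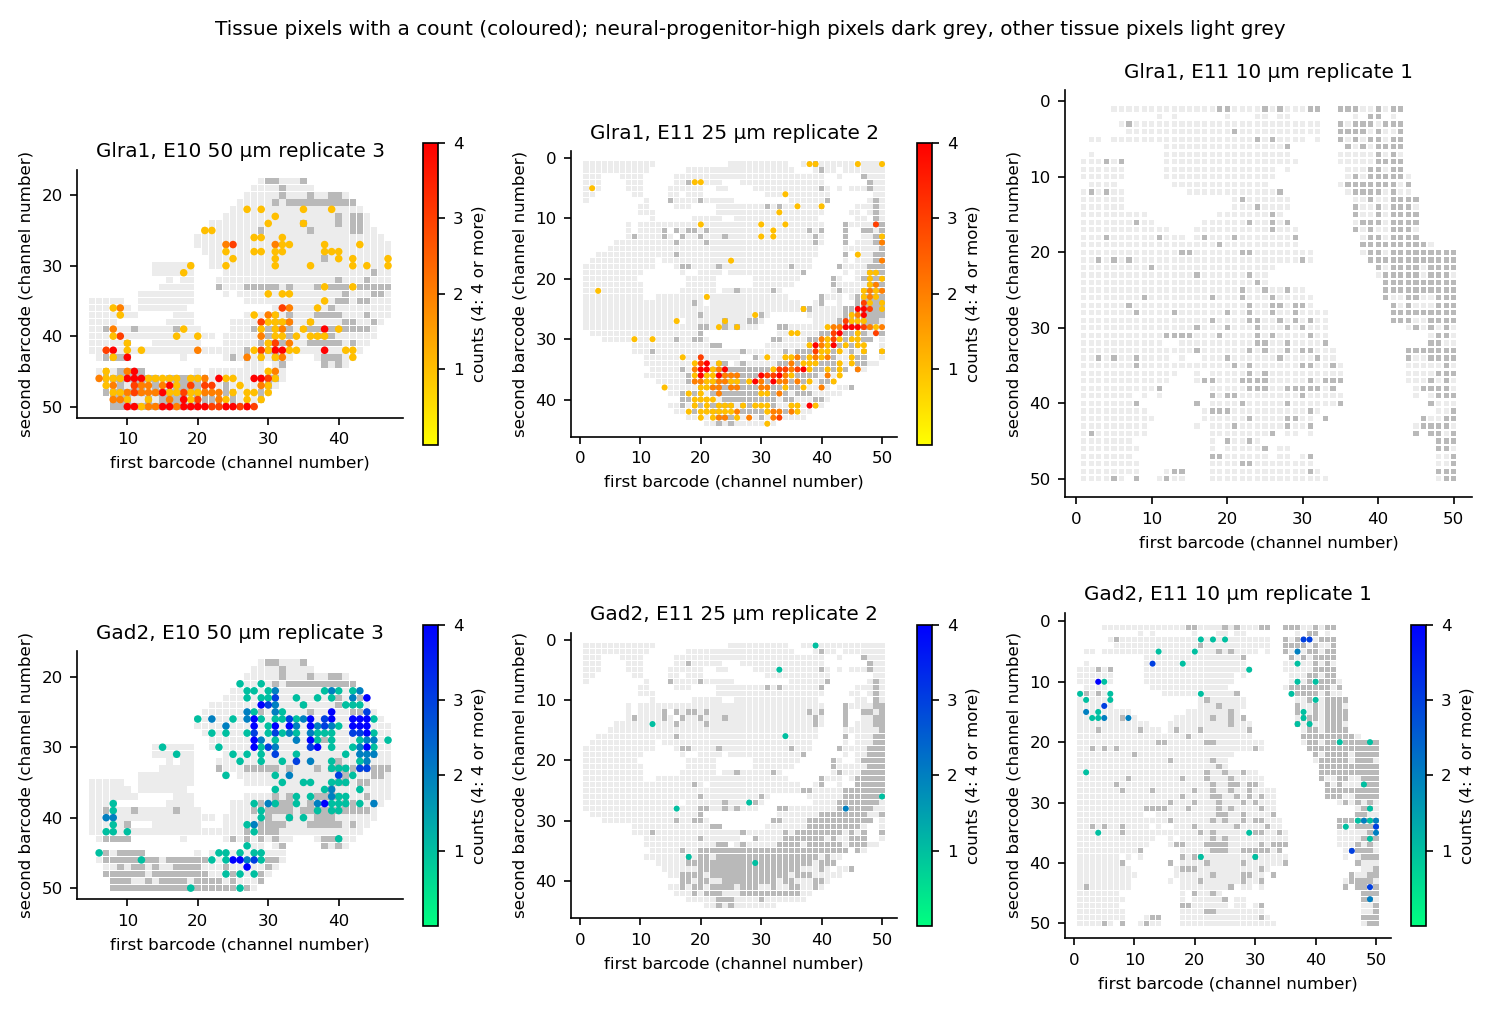
Tissue pixels of 3 libraries by the channel numbers of their 2 barcodes (axes), with pixels that had a Glra1 count (upper row) or a Gad2 count (lower row) coloured by count, neural-progenitor-high pixels in dark grey and other tissue pixels in light grey. In the second E11 25 µm library Glra1 follows the dark grey band, with 223 positive pixels, and Gad2 has 10. The first E11 10 µm library has no Glra1 count and 54 Gad2-positive pixels.

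The tissue of the Glra1-positive pixels was read from marker lists, with no test because Glra1 itself defines the pixels. Progenitor markers summed to 4388 and 5026 CPM in Glra1-positive pixels and to 2194 and 2330 CPM in the other pixels at E11 25 µm, log2 ratios of 1.00 and 1.11. At E10 50 µm the ratios were 0.41, 0.50 and 0.31. Neuron markers gave 0.58 and 0.40 at E11 25 µm and -0.03, 0.58 and 0.08 at E10 50 µm. Markers of heart muscle, liver and red cells were lower in Glra1-positive pixels at E11 25 µm, with heart muscle markers at 303 against 3101 CPM and 542 against 3035 CPM, liver markers at 240 against 1430 CPM and 741 against 1890 CPM, and red cell markers at 3681 against 18185 CPM and 4726 against 14755 CPM. Not all other tissues were lower. Markers of skeletal muscle and somite had ratios of 0.20 and 0.58 at E11 25 µm and 1.29, 1.52 and 0.32 at E10 50 µm, and those of floor plate and notochord -0.13 and 0.38, and -0.08, -0.02 and 0.44. Liver markers had -0.69, 1.58 and 0.40 at E10 50 µm. When pixels were ranked by the skeletal muscle and somite markers, Glra1 was higher in the top 25% in 7 of 9 libraries, with a median of 29.8 against 12.5 CPM. That list holds Pax3, which edgeR called higher in progenitor-high pixels (log2 fold change 1.15, SE 0.13, adjusted p = 9.4e-05). Pax3 was 1 of 3 genes of the list tested there, and the only one called. Its part in the Glra1 ranking was not tested. Compared within 5 classes of pixel depth, the progenitor ratios at E11 25 µm were 0.83 and 0.97.

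Among the members, Slc6a5 was the one with a ratio above 0.9 in all 5 of these libraries. Its ratios were 0.91, 1.8 and 1.32 at E10 50 µm, from 46, 13 and 30 counts, and 1.88 and 2.71 at E11 25 µm, from 3 counts each. Gad2 gave -0.06, -0.16 and -0.23 at E10 50 µm, or 24.3 against 25.3, 16.8 against 18.9 and 32.5 against 38.3 CPM in Glra1-positive and other pixels.

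Glra1-positive pixels had more Hox RNA and less RNA of forebrain and midbrain genes than the other pixels at both stages. The Hox genes had 689 against 230 CPM, 526 against 152 CPM and 320 against 124 CPM in Glra1-positive and other pixels at E10 50 µm, and 626 against 380 CPM and 722 against 442 CPM at E11 25 µm. The forebrain and midbrain genes were lower in Glra1-positive pixels in all 5 libraries, with log2 ratios of -0.85 to -1.71. At E11 25 µm these genes held only 58 and 190 counts over the whole sections, with 3 and 4 of 6 genes detected. Their ratios at E11 therefore rest on few counts. These Hox and head lists were put together after values had been seen.

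**Figure D4:**
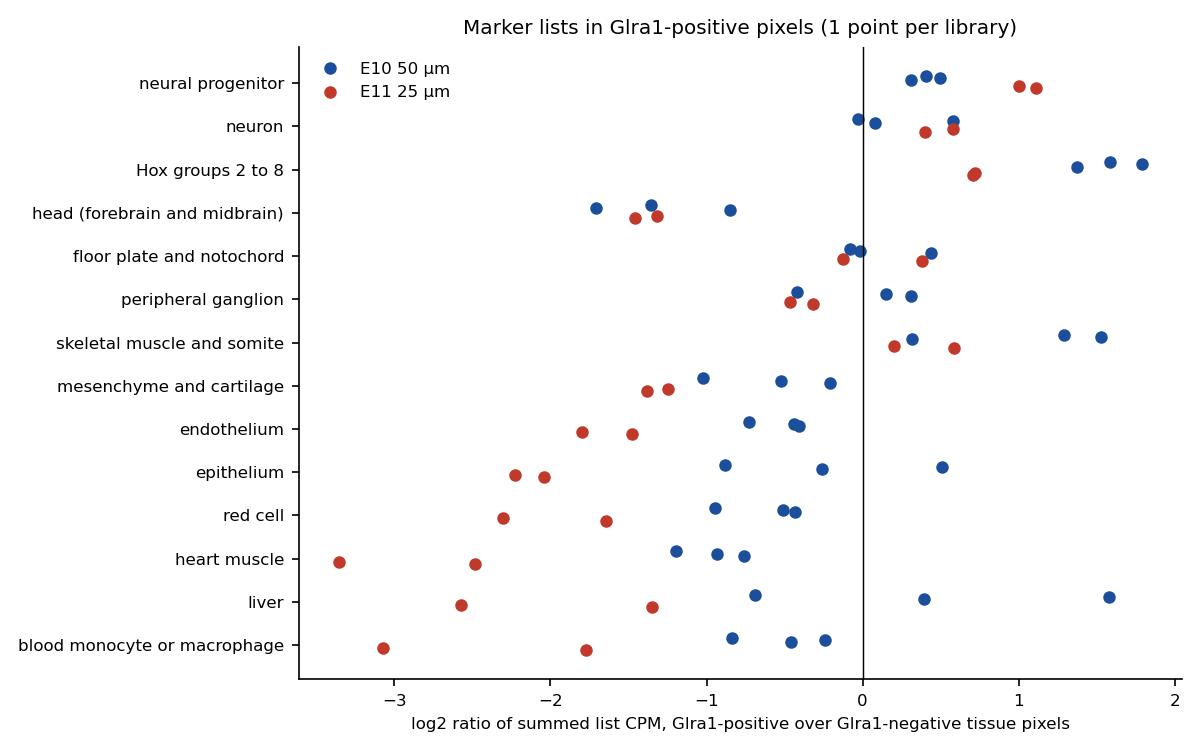
Log2 ratio of the summed level of each marker list in Glra1-positive over Glra1-negative tissue pixels (horizontal axis), 1 point per library for the 3 E10 50 µm and the 2 E11 25 µm libraries. Progenitor and Hox lists lie right of 0 in all 5 libraries, and head, heart muscle, red cell, endothelium and mesenchyme lists lie left of 0.

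Splitting the progenitor-high pixels by whether Hox or head counts were in excess separated Glra1 within sections that held both. At E10 50 µm Glra1 had 82.6 CPM in 125 Hox pixels against 5.98 CPM in 72 head pixels, 64.4 CPM in 86 against 17.7 CPM in 89, and 171 CPM in 97 against 11.1 CPM in 77. At E11 25 µm nearly all progenitor-high pixels with a call were Hox pixels, 324 and 340 of them at 82.7 and 121 CPM, against 2 and 1 head pixels. At E10 10 µm, 6 of the 21 Glra1 counts of the first library fell in its 7 Hox pixels (128 CPM) and 4 in its 312 head pixels (2.07 CPM), and the second library had no Hox pixel. The E10 25 µm library had 6 counts in 160 head pixels (31.9 CPM) and none in 8 Hox pixels, whose 8844 counts in all are too few to compare the classes.

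The E11 10 µm libraries differed in this split. The first had 147 head pixels and no Hox pixel among its progenitor-high pixels. The second had 105 Hox pixels without a Glra1 count, at a median depth of 1106 counts against 4272 and 7178 counts in the Hox pixels of the E11 25 µm libraries. At E12, 234 Hox pixels had 7 Glra1 counts, or 6.73 CPM, at a median of 3976 counts. Gad2 in the same pixels was lower in Hox than in head pixels at E10 50 µm, with 11.7 against 24.9, 21.8 against 25.5 and 6.98 against 26.3 CPM, and reached 16.4 CPM in the Hox pixels at E12.

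**Figure D5:**
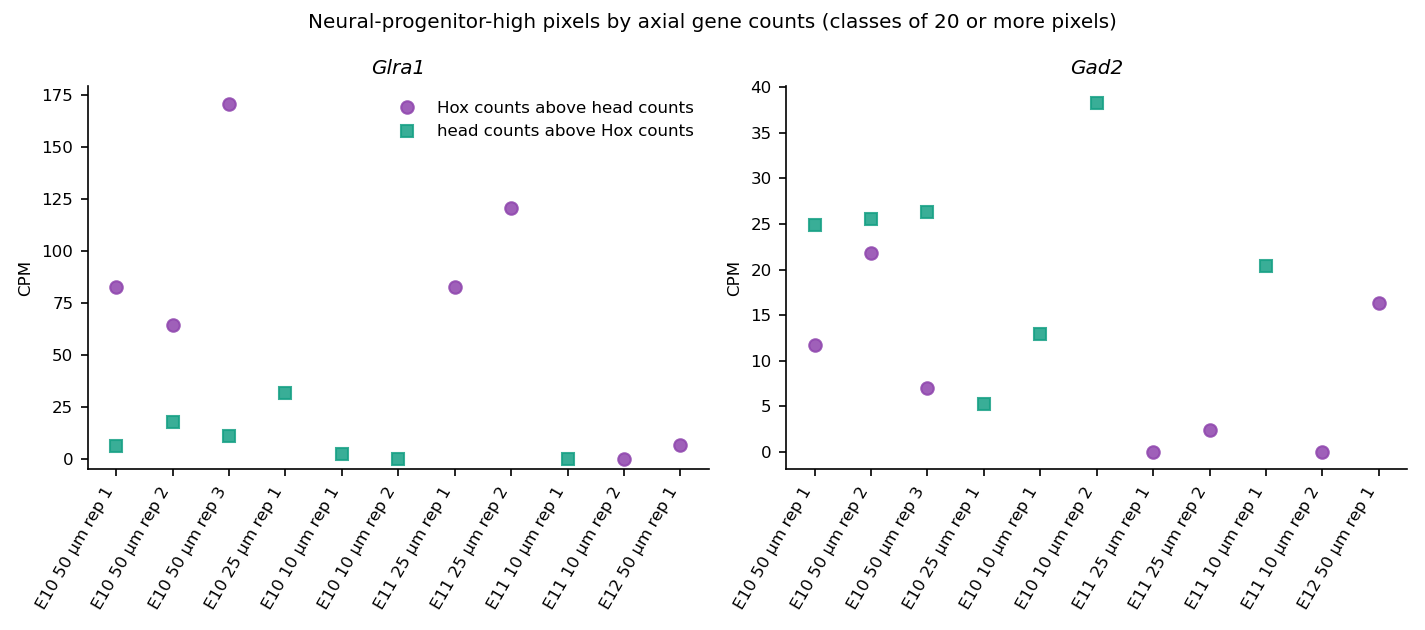
Glra1 and Gad2 level in CPM (vertical axes) in neural-progenitor-high pixels with more Hox than head counts (circles) or more head than Hox counts (squares), for each library (horizontal axis) where the class holds 20 or more pixels. Glra1 circles lie at 64.4 to 171 CPM in the E10 50 µm and E11 25 µm libraries and at 0 in the second E11 10 µm library, and Gad2 squares lie above the circles at E10 50 µm.

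The genes whose library pattern was most like that of Glra1 were Wnt3 (Pearson r = 0.96), Tppp3 (0.94), Msx3 (0.94), Nmnat2 (0.93) and Ndnf (0.93), of 14687 genes compared on log2(CPM + 1) over the 11 libraries. These are descriptions over libraries that share their sections and depth with Glra1. Msx3, a homeobox gene of the dorsal neural tube, had 73.5, 52.3 and 64.6 CPM at E10 50 µm, 30.8 and 22.8 CPM at E11 25 µm, and 2.33 and 0 CPM at E11 10 µm. Among the members, r to Glra1 was 0.62 for Slc6a5, 0.40 for Gphn, 0.24 for Glrb, 0.11 for Slc32a1, 0.08 for Gad1 and -0.11 for Gad2.

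Of 5221 genes ranked by their ratio in Glra1-positive pixels at E11 25 µm, the first 5 were Olig2, Ccdc182, Nuak2, Neurod4 and Btbd17. Neurod4, a proneural factor, had 36.2 against 8.52 CPM and 86.3 against 13.4 CPM at E11 25 µm, and was higher in Glra1-positive pixels in the 3 E10 50 µm libraries too, by 1.60, 1.8 and 1.23 on the log2 scale. Olig2, a factor of the ventral progenitors that give motor neurons and oligodendrocytes, had 39.5 against 4.26 CPM and 20.05 against 2.38 CPM at E11 25 µm, but at E10 50 µm its ratios were -2.15, -0.86 and -0.17.

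Of the coding genes next to Glra1 on the chromosome, only G3bp1 had enough counts to compare, and it did not share the Glra1 pattern. G3bp1, the next coding gene on one side and 9400 bases away, lay between 141 and 347 CPM in all 11 libraries and had 188 and 158 CPM at E11 10 µm. Nmur2, on the other side and 416789 bases away, had 1 count in each of 2 libraries, too few to compare. The annotated features Gm12236 and Gm12237 overlap Glra1 on the opposite strand and have no column under these names in the transcript tables. Whether strand was used in counting is not given in the sources used here, and without it reads of Glra1 and of Gm12236, an antisense gene, cannot be told apart.

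Of 8 lists of related genes, with 90 members of which 77 were tested, 0 to 2 were called by edgeR in each tested contrast between libraries. From E10 50 µm to E10 10 µm, DESeq2 called 7 of the related genes. With edgeR, which called 0.11% of all genes tested, 2 of 77 were lower and none higher. These were Lhx1, a factor of inhibitory and other interneurons (-2.85, SE 0.47, adjusted p = 0.048), and Slc18a3, the vesicular acetylcholine transporter (-5.24, SE 0.80, adjusted p = 0.034). The median log2 fold change was -0.94 for 23 inhibitory neuron factors and -0.85 for 13 tested GABA receptor genes, against -0.03 for all genes. Excitatory and motor neuron genes had a median of -0.85 (11 tested), general neuron markers -1.74 (9) and peripheral ganglion markers -1.47 (7). From E10 to E11 at 10 µm, against 3.33% of all genes, 2 of 77 were lower, the GABA-A receptor subunit gene Gabra2 (-4.87, SE 0.99, adjusted p = 0.019) and the vesicular glutamate transporter gene Slc17a6 (-3.01, SE 0.60, adjusted p = 0.017), and DESeq2 called 2. From E10 to E12, against 2.14% of all genes, 1 of 77 was higher, Gabrb1 (3.92, SE 0.75, adjusted p = 0.02), and DESeq2 called 6. At 25 µm from E10 to E11 the E10 group is a single library, so no further count of related genes is given for that contrast. The percentages here are edgeR shares and are not the background of the DESeq2 counts. No share of all genes called by DESeq2 is given for these contrasts, so an excess of related genes cannot be read from its counts. DESeq2 called more genes in all than edgeR did between the E10 widths, and from E10 to E11 at both widths.

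Within sections, related genes were counted against the share of all genes called in the same fit. In neuron-high pixels, where 22.6% of all genes tested were called and 11.3% as higher, 17 of 42 related genes tested were higher and 3 lower. In progenitor-high pixels, where the shares were 7.72% and 3.47%, 3 of 40 were higher and 4 lower. In neuron-high pixels 4 of 5 tested GABA receptor genes were higher, among them the GABA-B receptor gene Gabbr1 (0.92, SE 0.08) and Gabra2 (0.59, SE 0.20), and the list's median was 0.92 against -0.03 for all genes. Of the genes of inhibitory synapse adhesion, 5 of 6 tested were higher, among them Nrxn3 (1.74, SE 0.19) and Lhfpl4 (1.06, SE 0.15). The inhibitory neuron factors Lhx1 (2.18, SE 0.17) and Lhx5 (1.30, SE 0.21) were higher, 2 of 10 tested, as was the excitatory marker Slc17a6 (1.92, SE 0.22). Of 9 inhibitory neuron factors tested in progenitor-high pixels, Lhx1 (1.02, SE 0.19) was among those that were higher, and Tal1 (-1.12, SE 0.17), Gata3 (-0.81, SE 0.19) and Gata2 (-0.71, SE 0.22), which also act in blood cells, were lower. Red cell markers were lower in the same pixels, 3 of 7 by the test.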

How the data were processed

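RNA was measured on frozen embryo sections by paired spatial barcodes. The authors deposited 1 table of whole-number counts per gene and pixel for each of the 11 transcript libraries; 4 antibody libraries were not used. The submitters' processing notes name CASAVA 1.8.2 and the build GRCh38, a human build, with no role given; the aligner, whether duplicates were collapsed and whether strand was used are not given in the sources used here. Gene positions come from a GENCODE annotation of GRCm38.

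A pixel counted as tissue when its total reached a fraction of 0.1 of the library's 95th percentile, and counts were summed per library over such pixels. Differences were tested with edgeR 4.0.16 in R 4.3.3 (TMM scaling, filterByExpr, quasi-likelihood test on 6 group means, or on pixel classes with library as a block), with Benjamini-Hochberg adjustment over all genes tested and a threshold of 0.05; the steps were tested on simulated data. DESeq2 1.42.0, other scaling, no filter, all pixels, other pixel classes and leaving out each library were alternatives. The Hox and head lists are an analysis added later.

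Related genes are named if they passed the test (up to 3 per list and contrast); genes like Glra1 are the 5 with the highest correlation, and pixel companions the 5 with the highest lower-of-2 ratio. The members and lists were chosen with earlier results of these data known. Libraries of a group differed by more than sampling noise (chi-square per degree of freedom 24.6 to 70.0). Some genes that the naming rule selects are not reported here. Intervals cover counting error only.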

Additional observations from a re-analysis of the deposited data

How the results depend on the processing

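Each count below is the number of members called. It includes Glra1, which was chosen on its E11 levels, so counts in contrasts with E11 libraries are a description. Which members were called without the filter in those contrasts is not given here. The genes called in all are given further below. Without the filter on low counts it was 1 from E10 to E11 at 10 µm and 2 at 25 µm, against 0 and 0. It was 1 for the difference between these stage changes, against 0, and 6 in neuron-high pixels, against 1. DESeq2 called 5 in neuron-high pixels. Calls over all genes also rose without the filter in these stage contrasts, and the number tested is not given. An excess of members therefore cannot be read from those counts. In neuron-high pixels 4.84% of all genes were called higher without the filter, against 11.3% with it. DESeq2 called 8.4% of the genes with an adjusted p higher there. With pixels thinned to 1000 counts both pixel fits called 0, because Gphn was the only member left by the filter. Leaving out 1 library gave counts of 0 to 1 from E10 50 µm to 10 µm and from E10 to E12, and of 1 to 2 in neuron-high pixels and in the E11 contrast. The replicate numbers of the E11 libraries share only a number (correlation 0.0747); with them as a replicate block the E11 contrast called 1 member and 297 genes in place of 378, and the difference between stage changes called 0 members and 21 genes in place of 25.

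Signs that turned belonged to values that were not called. Gad2 in progenitor-high pixels was -0.0022 without the filter, -0.20 in the highest 10% of pixels and -0.12 to 0.33 without 1 library. Leaving out 1 library gave, from E10 to E11 at 10 µm, -4.82 to 0.55 for Gad2, -1.75 to 1.18 for Gad1 (-0.018 without the filter) and -7.09 to 0.38 for Slc32a1, and from E10 50 µm to 10 µm -1.34 to 0.38 for Gad2. The mean progenitor ratio of Glra1-positive pixels at E11 25 µm was 1.05 and became 0.90 within classes of pixel depth.

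Calls over all genes moved most in the E10 contrast of widths, from 20 to 403 with DESeq2, 731 without the filter and 0 without any of the 5 libraries whose loss ends the Glra1 call. Without the filter 870, 1835, 671, 223 and 1328 genes were called in the E11 contrast, E10 to E11 at 10 µm, at 25 µm, the difference between these, and E10 to E12, against 378, 608, 83, 25 and 390; DESeq2 called 969, 374 and 123 in the middle 3. Leaving out 1 library gave 33 to 463, 190 to 1258, 17 to 218, 2 to 38 and 98 to 969 of them, 0 to 164 in the E10 contrast of widths and 515 to 1186 in progenitor-high pixels. Thinning left 163 and 417 genes called in progenitor-high and neuron-high pixels, in place of 958 and 2789, and no filter gave 2056 in the first. The cause of these shifts was not tested. Depth limits Glra2, Slc6a5, Slc32a1 and Gad1, with 37 to 266 counts in all.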
